A study of Homo sapiens with 28 samples.

Results

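The leucine-rich matrix genes described here are 8 genes of 26346 symbols in the count tables: ISLR, LRRC15, BGN, DCN, LUM, FMOD, PRELP and PODN. They were taken as a named list of leucine-rich repeat genes of the matrix and the stromal cell surface, and the list was chosen by their read counts in these same libraries, with their levels across the groups in view. All their values below are therefore a description, with no test. Of the 8 genes, 4 (ISLR, LRRC15, BGN and FMOD) were among the 14220 genes that passed the filter on low counts. The other 4 did not pass it, and are given by their reads.

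The proteins share a core of leucine-rich repeats, a curved fold that binds other proteins. Biglycan (BGN), decorin (DCN), lumican (LUM), fibromodulin (FMOD), prolargin (PRELP) and podocan (PODN) are secreted small leucine-rich proteins. They bind collagen and growth factors such as TGF-beta in connective tissue. LRRC15 is a membrane protein and ISLR, also called meflin, a surface protein anchored by a lipid. Both are known as markers of stromal fibroblasts, and LRRC15 is known to be induced by TGF-beta in fibroblasts.

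RNA sequencing was done on AN3CA cells, a human endometrial carcinoma line, in 28 libraries of 13 groups. Neither a drug nor a time course was applied. The 4 control libraries expressed the empty vector. ARID1A and ARID1B are alternative subunits of the BAF chromatin remodeler, and 12 constructs of them were expressed in 2 libraries each. The ARID1A groups were wild-type (WT), the CBR truncation, the delIDR1 truncation, the ARID domain mutant DBDmut, the DDX4 hybrid (carrying the disordered region of DDX4), the scramble mutant AQGscramC1C2 and a mutant here called 42YS, which its labels write in different ways. The ARID1B groups were WT, S320_G327del (M2), A457_G461del, Block13del and Block9del. The labels do not say whether a line was 1 clone, or whether the libraries of a group came from separate cultures. The spread between replicates may therefore be technical.

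Libraries held 16568010 to 27867107 gene-assigned reads. They fell into 3 sets by the share of those reads that the files place on the opposite strand from the gene, the column used here. In the first set, at 84.5% to 87.8%, were empty vector replicates 1 and 2 beside DBDmut, delIDR1, CBR and WT of ARID1A. In the second, at 98.1% to 98.6%, were empty vector replicates 3 and 4 beside M2, DDX4 and the ARID1B WT group. The third, at 96.7% to 97.9%, held the remaining 5 constructs and no empty vector library, so there construct and set cannot be told apart. Beside values against all 4 empty vector libraries, those against the pair of the same set are given for genes where they moved by over 1.5 times.

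The sequence ahead of the start of the 3 most abundant of these genes is shown because their levels differed so widely between the groups. The letters come from RefSeq (GRCh38.p14), 5′ to 3′ on the strand of the gene, and annotated exon bases were cut off. LRRC15 lies at chr3:194369744-194369993 on the minus strand. The first of the 2 ISLR starts listed lies at chr15:74173460-74173670 on the plus strand, and BGN at chrX:153494730-153494938 on the plus strand. Capitals mark matches to the searched motifs, on either strand.
LRRC15: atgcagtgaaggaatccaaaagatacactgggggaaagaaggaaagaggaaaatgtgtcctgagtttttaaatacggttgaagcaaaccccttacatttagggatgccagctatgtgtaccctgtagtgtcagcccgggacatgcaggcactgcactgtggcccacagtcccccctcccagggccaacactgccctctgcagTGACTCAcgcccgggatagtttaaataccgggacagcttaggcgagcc
ISLR: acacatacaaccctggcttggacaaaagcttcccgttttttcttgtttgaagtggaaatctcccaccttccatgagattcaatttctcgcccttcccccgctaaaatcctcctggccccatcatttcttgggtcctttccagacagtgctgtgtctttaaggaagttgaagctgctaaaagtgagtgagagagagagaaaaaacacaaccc
BGN: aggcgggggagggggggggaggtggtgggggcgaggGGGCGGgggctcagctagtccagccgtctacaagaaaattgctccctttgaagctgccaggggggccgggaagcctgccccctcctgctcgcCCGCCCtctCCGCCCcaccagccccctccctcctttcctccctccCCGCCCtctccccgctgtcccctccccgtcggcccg

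The motifs searched were those of TEAD, written GGAATG, of AP-1, written TGANTCA, and of RUNX, written TGTGGT. The E-box was written CANNTG, the GC box GGGCGG and the promoter box bound by TBP TATAAA. The LRRC15 stretch held 1 match, to AP-1 (TGACTCA), that began 48 bases before the start. AP-1 was matched in 6.57% of all 35116 RefSeq windows of 250 bases. The ISLR stretch shown held no match to the 6 motifs. The window of the second ISLR start, not shown, held 1 GC box match 177 bases before that start. The BGN stretch held 4 matches to the GC box, which 42.6% of all windows matched. These are matches of letters and no evidence of binding. Across all windows the other motifs were matched in 11.9% (TEAD), 11% (RUNX), 61.8% (E-box) and 10.7% (TBP). RefSeq windows were found for 6 of the 8 genes.

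LRRC15 was the most abundant of the 8 genes. Empty vector replicates 1 to 4 held 4, 5, 4 and 1 reads of it. ARID1A WT held 798 and 1043 reads and ARID1B WT 831 and 1026. M2 held 1258 and 978. These 3 groups had nearly the same level: 47.8 ± 1.52 CPM (counts per 1000000, scaled for library composition; mean ± SD, n = 2) with ARID1A WT, 47 ± 1.96 with ARID1B WT and 45.8 ± 3.22 with M2. The empty vector level was 0.181 ± 0.0896 CPM (n = 4). No library of the 3 groups came near it.

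As a ratio of summed reads normalised for library size, LRRC15 was 265 times the empty vector with ARID1A WT, with a 95% interval of 158 to 486. The interval is an exact binomial (Clopper-Pearson) one and covers counting error only, here and below. With ARID1B WT the ratio was 261, and with M2 it was 255. The direct ratio of ARID1B WT to ARID1A WT was 0.984 (0.922 to 1.05).

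The ARID1A mutants had less LRRC15 than ARID1A WT. DBDmut held 427 and 479 reads, CBR 325 and 307, and delIDR1 201 and 184. Relative to ARID1A WT the level was 0.445 with DBDmut (0.41 to 0.482), 0.299 with CBR (0.272 to 0.327) and 0.178 with delIDR1 (0.159 to 0.199). The libraries of these 4 groups did not overlap, and all came from the first set. DDX4 held 36 and 40 reads, a level 7.7 times that of the empty vector.

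The ARID1B deletions formed a descending order. A457_G461del held 196 and 213 LRRC15 reads, Block13del 94 and 85, and Block9del 17 and 7. Their ratios to the empty vector were 45.2, 23 and 2.72, the last with an interval of 1.35 to 5.69. AQGscramC1C2 held 2 and 3 reads and 42YS 2 and 6, which in CPM lay within the range of the empty vector libraries. Their ratios to it were 0.586 (0.165 to 1.72) and 0.926 (0.337 to 2.37).

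ISLR had no read in any of the 4 empty vector libraries. ARID1B WT held 201 and 224 reads, and M2 241 and 214. ARID1A WT held 27 and 56, while CBR held 92 and 89 and delIDR1 58 and 64. The order of the groups thus differed from that of LRRC15: the CBR libraries stood above both ARID1A WT libraries, and ARID1B WT stood above all of them. The levels were 10.8 ± 0.333 CPM with ARID1B WT, 9.37 ± 0.222 with M2, 4.1 ± 0.0715 with CBR, 2.7 ± 0.243 with delIDR1 and 2.1 ± 0.738 with ARID1A WT (n = 2 each).

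Since the empty vector was at 0 reads, ISLR ratios to it are lower bounds, set against a floor of 3 reads over the group. ISLR was at least 279-fold higher with ARID1B WT, at least 106-fold with CBR and at least 55.8-fold with ARID1A WT. Against the 2 empty vector libraries of the same set, where the floor weighs more, the bounds were 120, 60.5 and 31.9. In direct comparison CBR had 1.9 times the ISLR of ARID1A WT (1.45 to 2.49), and ARID1B WT had 4.99 times (3.94 to 6.4). ARID1B WT and ARID1A WT came from different sets. With delIDR1 the ratio was 1.25 (0.938 to 1.67), and its libraries overlapped those of ARID1A WT.

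DBDmut held 13 and 13 ISLR reads, 0.283 times ARID1A WT (0.175 to 0.445). DDX4 held 15 and 10. Among the ARID1B deletions, A457_G461del held 30 and 34 reads, Block13del 10 and 11, and Block9del 1 and 1. AQGscramC1C2 also held 1 and 1, and 42YS none. No ratio is given for these last 3 groups, since they were at or under the floor as well.

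**Figure D1:**
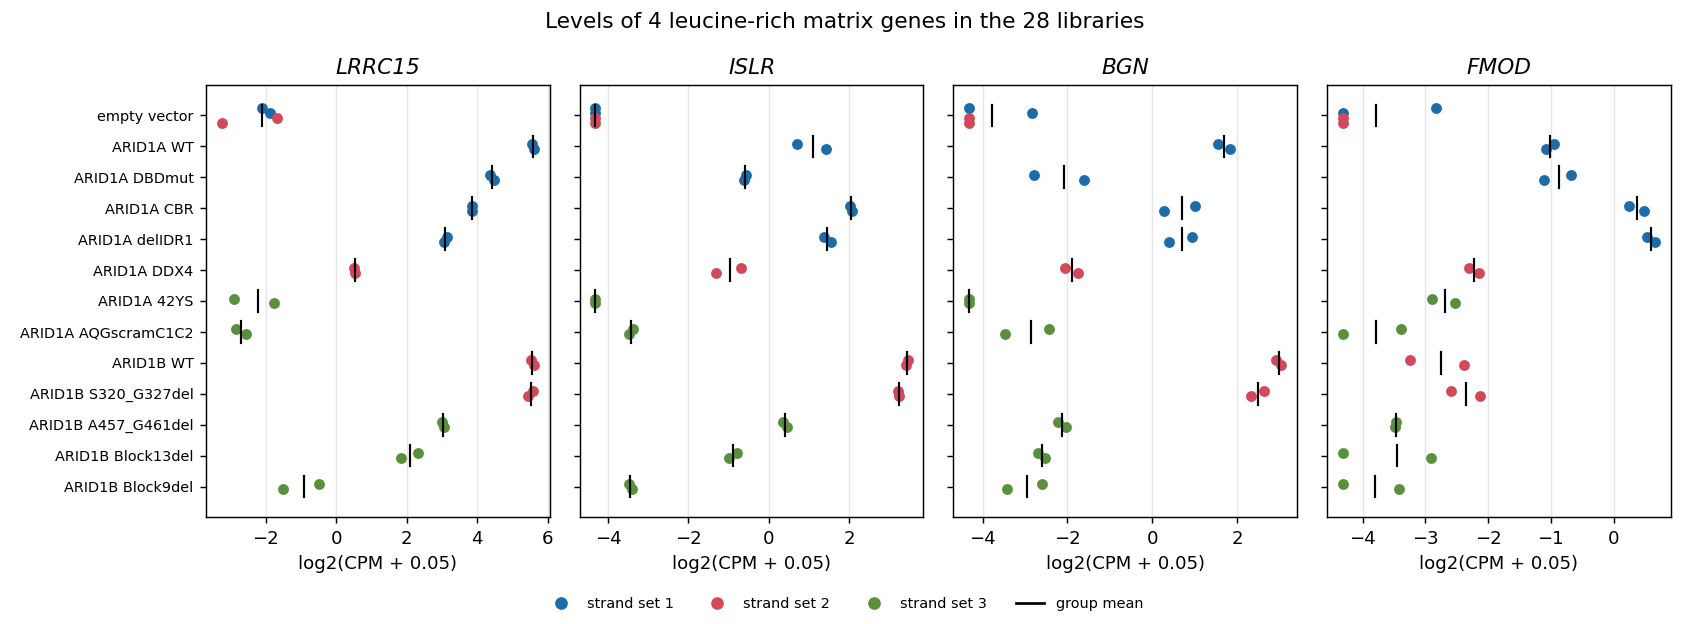
Level of LRRC15, ISLR, BGN and FMOD in each of the 28 libraries, as log2(CPM + 0.05) on the horizontal axis, by group; points are libraries, coloured by strand set, and bars are group means. LRRC15 lies highest in ARID1A WT, ARID1B WT and M2, ISLR and BGN in ARID1B WT and M2, and FMOD in delIDR1 and CBR.

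The balance of the surface genes can be put as LRRC15 over ISLR reads, each per kilobase of exon. It was 9.97 with ARID1A WT (13.3 and 8.37 in the 2 libraries) and 15.7 with DBDmut (14.8 and 16.6). It was 1.57 with CBR (1.59 and 1.55), 1.42 with delIDR1 (1.56 and 1.29) and 1.37 with DDX4 (1.08 and 1.8). The libraries of ARID1A WT and DBDmut thus lay above all those of CBR and delIDR1 from the same set. ARID1B WT was at 1.96 and M2 at 2.21, near the truncated ARID1A forms. A457_G461del was at 2.87 and Block13del at 3.83.

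**Figure D2:**
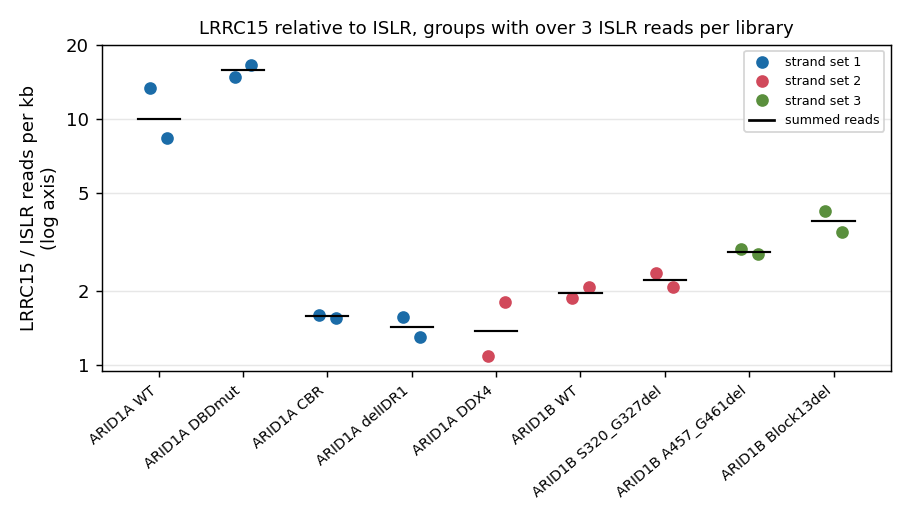
LRRC15 reads per kilobase divided by ISLR reads per kilobase (log axis) in the 9 groups with over 3 ISLR reads per library; points are libraries, coloured by strand set, and bars are the ratio of summed reads. ARID1A WT and DBDmut lie between 8.37 and 16.6, and every other library shown lies at 4.23 or lower.

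Biglycan, a proteoglycan that carries chondroitin or dermatan sulfate chains, was the one secreted member with more than a few CPM. BGN had 2 reads in empty vector replicate 2 and none in the other 3. ARID1B WT held 138 and 174 reads, M2 161 and 112, and ARID1A WT 49 and 75. The levels were 7.9 CPM with ARID1B WT, 5.57 with M2 and 3.19 with ARID1A WT. CBR held 45 and 25 reads and delIDR1 43 and 28, each 1.57 CPM on average. BGN with CBR was 0.491 times ARID1A WT (0.361 to 0.663), so that it moved below WT where ISLR stood above it.

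The ratio of BGN to the empty vector was 307 with ARID1B WT, with a wide interval of 84.3 to 2550, and 125 with ARID1A WT (33.9 to 1040). Empty vector replicates 3 and 4, from its set, had no BGN read, and against them ARID1B WT was at least 87.7-fold higher. For ARID1A WT the own-pair ratio was 71.5. DBDmut held 2 and 6 reads, 0.0583 times ARID1A WT (0.0246 to 0.119). That is a far larger loss than for LRRC15 in the same libraries. Every other construct held between 0 and 7 reads per library.

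Fibromodulin, which guides collagen fibril growth, was led by other groups. FMOD had 2 reads in empty vector replicate 1 and none in the other 3. It was highest with delIDR1 (32 and 34 reads) and CBR (26 and 29). DBDmut held 12 and 9 and ARID1A WT 8 and 9, while ARID1B WT held only 1 and 3. FMOD with delIDR1 was 3.3 times ARID1A WT (1.92 to 6), and with CBR 2.81 times (1.61 to 5.17). With ARID1B WT it was 0.23 times (0.0562 to 0.704). The ratio of ARID1B WT to the empty vector was 3.94, with an interval of 0.564 to 43.5 that includes no difference. Its own pair had no FMOD read, which leaves a bound of at least 1.12-fold. Against the empty vector, delIDR1 was at 56.6 times (own pair 32.4), CBR at 48.3 (27.6) and ARID1A WT at 17.2 (9.8).

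Prolargin, which ties basement membranes to the matrix beneath, held 22 PRELP reads in 15 libraries. No empty vector library had one, and the most were 2 and 4 reads with DBDmut. Podocan had 7 PODN reads in 5 libraries. Decorin had 3 DCN reads in 3 libraries and lumican 1 LUM read in all. These proteoglycans are abundant in fibroblast-rich tissue, and in AN3CA cells they were at the limit of detection with every construct.

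Per kilobase of exon, LRRC15 with ARID1A WT was at 8.05 CPM, BGN at 1.3, ISLR at 0.787 and FMOD at 0.131. Across the 13 group means, on a log2 CPM scale with a prior count of 2, Pearson's r was 0.92 between ISLR and LRRC15, 0.93 between ISLR and BGN and 0.84 between LRRC15 and BGN. With FMOD it was 0.48 to 0.53. Ranked among 13054 genes by likeness to ISLR, BGN came at place 18 and LRRC15 at 27. By likeness to LRRC15, BGN came at place 397. FMOD came at places 2428 to 2900 for the 3 others, so such r values were common. The points share libraries and sequencing sets, so these r values describe the pattern only. On this scale the genes most like ISLR were OLFML1 (0.983), KRT7 (0.975) and VASN (0.959). Those most like LRRC15 were TRAM2, TMC3 and MATN2, at 0.965 each. VASN, a transmembrane protein with leucine-rich repeats that binds TGF-beta, went from 2.99 ± 1.49 CPM in the empty vector (n = 4) to 70.4 with ARID1A WT and 89.5 with ARID1B WT. The empty vector libraries of the first set had 4.08 and 4.45 CPM of VASN and those of the second 1.44 and 2.01. Its log2 fold change with ARID1B WT was 4.84, and 5.68 against the own pair. The levels of MATN2, a matrix adaptor protein, were 5.19, 130 and 91.3.

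Counted against the empty vector, 4 of the 8 genes had every library above every control with ARID1A WT, where 24.1% of all tested genes did. The count was 5 of 8 with CBR (28.2% of tested genes) and 4 of 8 with ARID1B WT (22.1%). It was also 5 with delIDR1 (26.0%), DBDmut (20.2%), DDX4 (24.6%) and M2 (25.3%). It was 3 with A457_G461del (23.7%), Block13del (22.2%) and Block9del (21.4%), and 1 with AQGscramC1C2 (14.4%) and 42YS (21.1%). Several of these rest on 1 read per library, and nothing is read from them, since the same contrasts were in view when the genes were chosen.

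The RNA of the constructs themselves differed in the same groups. ARID1A was at 288 CPM in the empty vector, 733 with ARID1A WT, 1020 with CBR, 665 with DBDmut, 589 with delIDR1, 523 with DDX4, 374 with 42YS and 247 with AQGscramC1C2. ARID1A RNA with AQGscramC1C2 was thus not above the empty vector. ARID1B was at 98 CPM in the empty vector, 3600 with ARID1B WT, 4250 with M2, 2240 with A457_G461del, 883 with Block13del and 344 with Block9del. LRRC15 and ISLR had the same order over the last 3. Elsewhere the order differed. CBR had more ARID1A RNA than ARID1A WT but less LRRC15 (14.3 beside 47.8 CPM). M2 had more ARID1B RNA than ARID1B WT but less ISLR (9.37 beside 10.8 CPM). The part of construct RNA in these levels was not tested. Reads do not separate construct from endogenous transcripts.

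The stromal character of ISLR and LRRC15 was set beside other markers. Of 12 fibroblast markers, 6 reached 1 CPM in the empty vector. The summed level of the 12 was 279 to 471 CPM in the empty vector, 959 to 963 with ARID1A WT, 466 to 483 with CBR and 674 to 728 with ARID1B WT. FAP, the fibroblast activation protein, had no read in any of these 4 groups. FBN1, fibrillin, made up most of that sum, at 308 CPM in the empty vector and 670 with ARID1A WT. Single markers differed in direction: ACTA2 was at 17.1 CPM in the empty vector, 74 with ARID1A WT and 7.57 with CBR. The 8 epithelial markers summed to 19.2 to 26.6 CPM in the empty vector, 65.2 to 66 with ARID1A WT, 30.3 to 34.3 with CBR and 61 to 62 with ARID1B WT. KRT18 (11.7 CPM) and MSX1 (9.88) made up most of it in the empty vector, where EPCAM was at 0.482 and PAX8 had no read. The 6 leukocyte markers summed to 1.68 to 2.94 CPM in the empty vector, 15 to 16.9 with ARID1A WT, 3.54 to 3.65 with CBR and 14 to 14.1 with ARID1B WT. CD68 made up nearly all of it, at 2.04, 15.6, 3.25 and 13.8 CPM, and PTPRC, which defines leukocytes, did not exceed 0.0453 CPM in any library. The part of these marker levels in the results was not tested. In bulk RNA, more cells with a transcript and more RNA per cell cannot be told apart.

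The other genes of the small proteoglycan system were put in 6 lists, of which 107 of 145 genes could be tested. With ARID1A WT, 59 were higher and 7 lower than in the empty vector, and their median log2 fold change was 0.54 beside -0.06 over all genes tested. With CBR 60 were higher and 11 lower (median 0.58 beside -0.02), and with ARID1B WT 54 and 12 (0.37 beside -0.07). Over all tested genes, 44.5% were called with ARID1A WT (21.1% higher, 23.5% lower), 53.1% with CBR (25.2% and 27.8%) and 43.1% with ARID1B WT (19.2% and 23.9%). Calls are at an adjusted p under 0.05 in edgeR's quasi-likelihood test. The 3 comparisons share the empty vector libraries. The 6 lists were chosen with earlier results of these data known. Counts, medians and p-values here and in the list paragraphs below are therefore a description and no independent evidence.

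The nearest relatives of ISLR, LRRC15 and the small proteoglycans gave 9 tested genes of 20 listed. LRRC17, a secreted leucine-rich protein, rose by 5.25 ± 0.369 (log2 fold change ± SE, adjusted p = 5.28e-10) with ARID1A WT and by 4.74 ± 0.383 (6.58e-09) with ARID1B WT. With CBR it rose by 2.69 ± 0.471 (8.95e-05). In this list 3 genes rose and 1 fell with ARID1A WT, 5 and 1 with CBR, and 2 and 2 with ARID1B WT. Over all tested genes 44.5%, 53.1% and 43.1% were called in the same order, and nothing is read from counts this small.

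Biglycan and decorin need enzymes that build and sulfate their chains. The list of chain synthesis also holds enzymes of keratan sulfate, another kind of chain (CHST1, CHST2, CHST6 and B4GALT4). Of 28 tested genes of chain synthesis, 14 rose and 2 fell with ARID1A WT, 20 and 5 with CBR, and 14 and 2 with ARID1B WT. CHSY1, which polymerises chondroitin, rose from 66.6 CPM in the empty vector to 173 with ARID1A WT (log2 1.38 ± 0.045, adjusted p = 2.84e-15), 109 with CBR (0.7 ± 0.046, 2.93e-10) and 139 with ARID1B WT (1.07 ± 0.045, 3.09e-13). The chondroitin sulfotransferase CHST11 rose by 1.46, 0.76 and 1.79 in the same order, and CHST7 by 2.51, 1.3 and 2.01.

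The list of other proteoglycans also holds TNC, a matrix glycoprotein. Among its 18 tested genes, 14 rose and none fell with ARID1A WT. With CBR 11 rose and 1 fell, and with ARID1B WT 11 rose and 2 fell. The surface proteoglycan CSPG4 was at 32.3 CPM in the empty vector, 114 with ARID1A WT (log2 1.82 ± 0.106, adjusted p = 2.74e-11) and 113 with CBR (1.8 ± 0.105, 6.88e-11). TGFBR3, betaglycan, a co-receptor of TGF-beta, rose by 2 with ARID1A WT and by 1.8 with ARID1B WT.

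Small proteoglycans act on collagen fibrils, and of 27 tested fibril genes 18 rose and 2 fell with ARID1A WT, 16 and 1 with CBR, and 18 and 3 with ARID1B WT. COL1A1, a chain of type I collagen, went from 0.753 CPM to 89.3 with ARID1A WT (log2 6.91 ± 0.159, adjusted p = 1.24e-17), 18.2 with CBR (4.62 ± 0.173, 1.17e-13) and 27.1 with ARID1B WT (5.19 ± 0.168, 3.76e-15). COL12A1, a fibril-surface collagen, rose by 7.6 with ARID1A WT and by 7.27 with ARID1B WT. With CBR it held 5 reads, a log2 fold change of -0.54 that did not pass (adjusted p = 0.533). FN1, fibronectin, fell by 1.74, 1.57 and 1.82 with ARID1A WT, CBR and ARID1B WT.

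Of 17 tested ligands and receptors of these proteins, 7 rose and 1 fell with ARID1A WT, 4 and 3 with CBR, and 6 and 3 with ARID1B WT. The shares of all tested genes called were 44.5%, 53.1% and 43.1% in the same order, and nothing is read from these counts as a list. TGFB1, the growth factor that decorin and biglycan bind, rose by 1.39 ± 0.292 (adjusted p = 0.000675) with ARID1A WT, 1.66 ± 0.282 (6.56e-05) with CBR and 1.32 ± 0.293 (0.00123) with ARID1B WT. Empty vector TGFB1 differed between the pairs, at 1.42 CPM in the first set and 4.13 in the second. TGFB1 was at 6.95 CPM with ARID1A WT, which also rose against its own pair (adjusted p = 1.71e-10). The own-pair rise was 2.56 with CBR (adjusted p = 8.97e-12) and 0.69 with ARID1B WT (0.00119). MET, the receptor that decorin binds, had no empty vector read and 97 with ARID1A WT, at least 65.2-fold higher (at least 37.3-fold against the own pair). With CBR it had 1 read. EGFR fell by 1.56 ± 0.23 with CBR (adjusted p = 1.37e-05).

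Of 8 tested proteases that cleave small proteoglycans, 3 rose and 1 fell with ARID1A WT, 4 rose and none fell with CBR, and 3 rose and none fell with ARID1B WT. Beside these, 44.5%, 53.1% and 43.1% of all tested genes were called, and nothing is read from counts this small. MMP2, with 9 reads in the empty vector, rose by 9.49 ± 0.185 with ARID1A WT and 10.87 ± 0.177 with ARID1B WT. With CBR it held 5 reads and did not pass (-0.03, adjusted p = 0.975). HTRA1, a secreted serine protease, rose by 3.81 ± 0.182 (adjusted p = 1.26e-12) with ARID1A WT, 2.21 ± 0.2 (2.94e-08) with CBR and 2.33 ± 0.2 (1.59e-08) with ARID1B WT. ADAMTS4, an aggrecanase that also cuts biglycan, rose by 3.32, 2.68 and 2.23. Against the pair of the same set the values were 2.71, 2.06 and 3.87, so that the order of the 3 constructs depended on the control libraries.

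**Figure D3:**
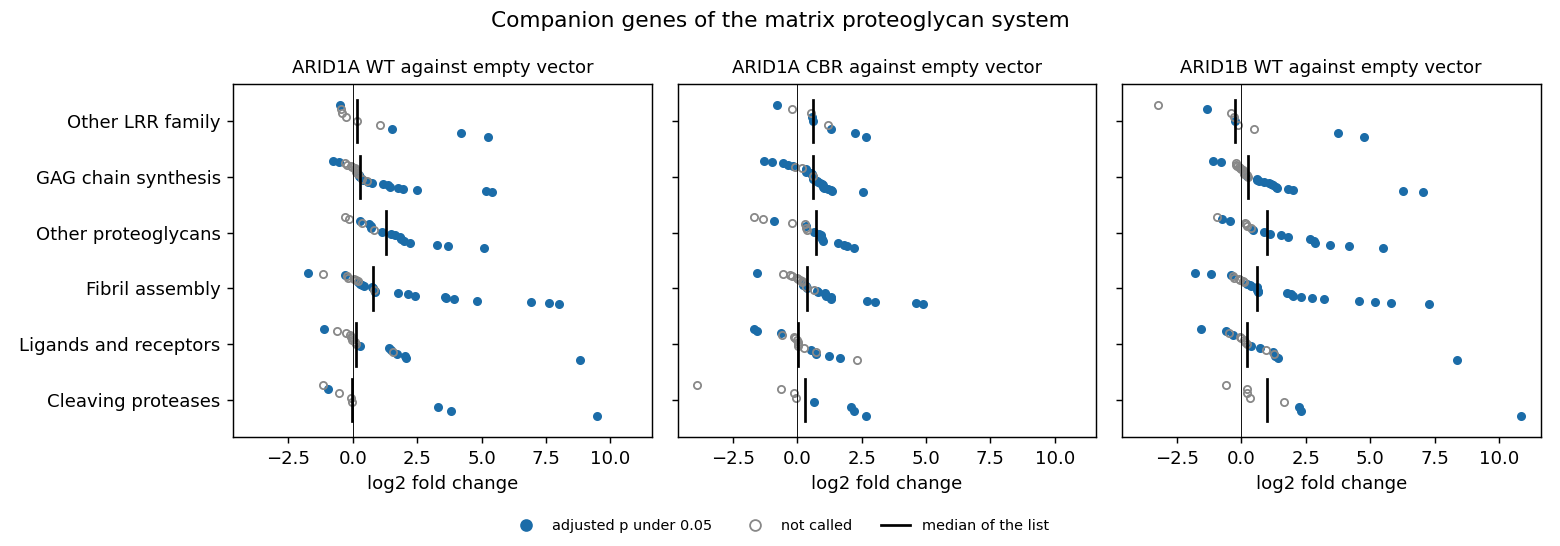
Log2 fold change against the empty vector of each tested companion gene (horizontal axis) in 6 lists for ARID1A WT, ARID1A CBR and ARID1B WT; filled points passed the test, open points did not, and bars are list medians. The median of other proteoglycans, the highest of the 6, lies at 1.3, 0.75 and 0.99, beside all-gene medians of -0.06, -0.02 and -0.07. The lowest list medians are -0.05 (cleaving proteases, ARID1A WT), 0.04 (ligands and receptors, CBR) and -0.26 (other LRR family, ARID1B WT).

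The tested genes next to the 8 on the chromosome were examined because they were picked by position. Their levels still entered through the filter on low counts. CPN2 and CHI3L1 had no empty vector read and passed the filter only through ARID1B WT. ISLR2 is also in a companion list, chosen with earlier results of these data known. The counts below are therefore a description. Up to 2 on each side gave 24 genes, ordered by a current RefSeq table. Of these, 9 rose and 4 fell with ARID1A WT, 9 and 3 with CBR, and 10 and 3 with ARID1B WT. Beside these 9, 9 and 10 of 24, the shares of all tested genes called higher were 21.1% with ARID1A WT, 25.2% with CBR and 19.2% with ARID1B WT. The shares called lower were 23.5%, 27.8% and 23.9%.

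Both nearest tested neighbours of ISLR rose. STRA6, a membrane receptor for retinol uptake, had 2 reads in the empty vector libraries. It rose by 6.14 ± 0.466 (adjusted p = 1.71e-09) with ARID1A WT, 4.75 ± 0.557 (8.56e-07) with CBR and 7.8 ± 0.388 (3.54e-12) with ARID1B WT. Its levels were 2.2, 0.843 and 6.99 CPM in that order, and 8.2 with M2. ISLR with CBR was above ARID1A WT, whereas STRA6 with CBR was below it. As a ratio of summed reads STRA6 was 85.8 times the empty vector with ARID1A WT (23 to 720), 32.5 times with CBR (8.38 to 278) and 272 times with ARID1B WT (74.5 to 2250). ISLR2, a relative of ISLR with 3 empty vector reads, rose by 4.2 ± 0.668 with ARID1A WT (adjusted p = 3.72e-05) and 3.74 ± 0.712 with ARID1B WT (0.000308). The ISLR2 ratios of summed reads were 20.9 (6.5 to 107) and 15.1 (4.56 to 78.5). Against the own pair the log2 rise was 3.47 with ARID1A WT, and with ARID1B WT, whose pair had no ISLR2 read, the rise was at least 6.47-fold. With CBR it passed at an adjusted p of 0.0375, and did not pass against the pair of the same set (adjusted p = 0.162). PML, the next gene, did not pass in the 3 comparisons, with 36.3 CPM in the empty vector and 35.6 to 38.3 in the constructs. Against its own pair, PML with CBR passed at a log2 fold change of -0.18 (adjusted p = 0.0301). SEMA7A, beyond STRA6, rose by 0.94 ± 0.149 with CBR (adjusted p = 2.98e-05). It did not pass with ARID1A WT (0.31, adjusted p = 0.121) or ARID1B WT (0.03, 0.917). Against the own pair SEMA7A with ARID1A WT passed at 0.4 (adjusted p = 0.0362).

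Next to LRRC15, CPN2, a leucine-rich subunit of a plasma carboxypeptidase, had no empty vector read. It was at least 8.07-fold higher with ARID1A WT and at least 18.4-fold with ARID1B WT. Against the own pairs the bounds were 4.61 and 7.87. With CBR it had 2 reads. CPN2 passed the filter on low counts only through ARID1B WT, with 16 and 12 reads, and every other library held 7 or fewer. Its p-values are left out for that reason. On the other side, ATP13A3, a polyamine transporter, rose by 0.62 ± 0.1 with ARID1A WT (adjusted p = 4.7e-05) and 0.4 ± 0.101 with ARID1B WT (0.00358). Near FMOD and PRELP, ATP2B4, a calcium pump, rose by 1.26 ± 0.082 with ARID1A WT (adjusted p = 1.55e-10), 1.34 with CBR and 1.26 with ARID1B WT. ATP2B4 was thus raised with ARID1B WT, where FMOD had 1 and 3 reads.

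**Figure D4:**
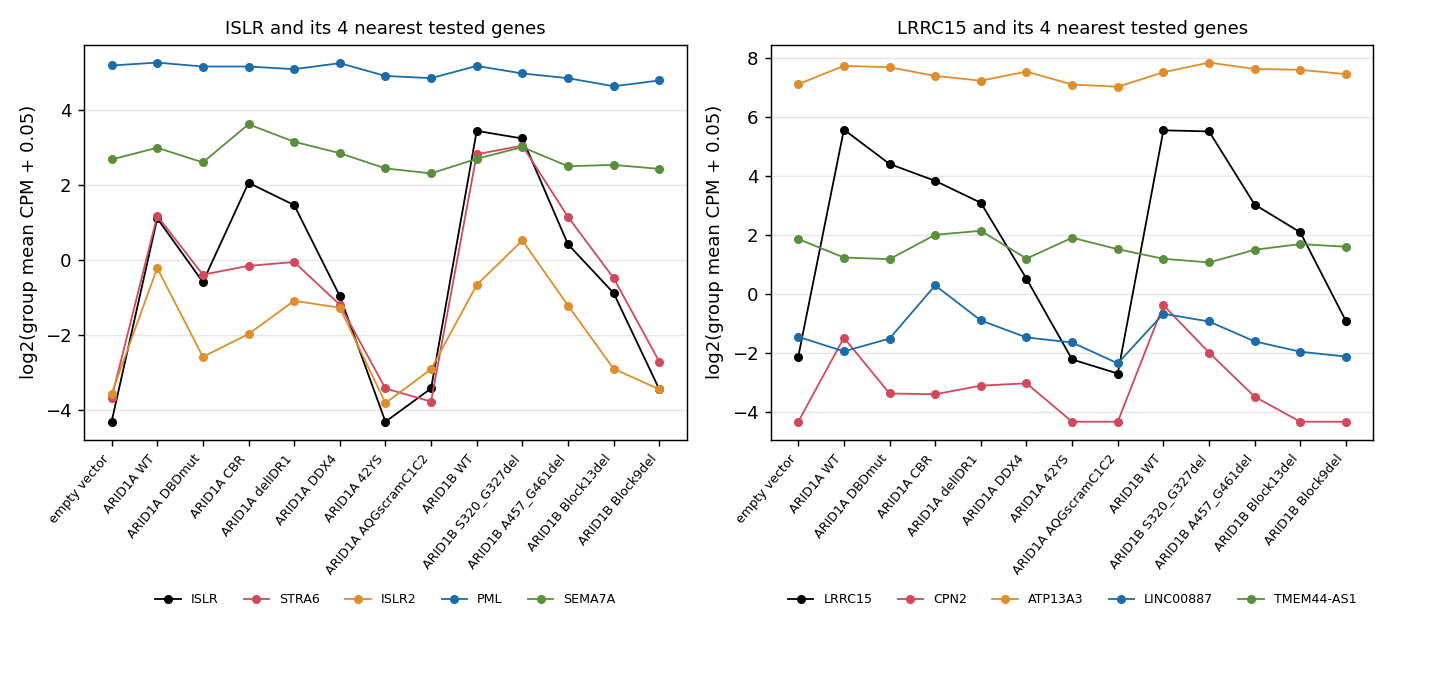
Group mean level as log2(CPM + 0.05) of ISLR (left) and LRRC15 (right) with their 4 nearest tested genes, over the 13 groups. STRA6 and ISLR2 rise with ISLR in the WT groups, and PML stays between 35.6 and 38.3 CPM in the 3 main constructs.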

How the data were processed

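RNA sequencing of 28 AN3CA libraries was analysed from the deposited counts of reads per gene. Per the submitters' processing notes, bcl2fastq, STAR 2.5.2b and Bowtie2 2.29 were used with hg19; the annotation is not given in the sources used here. Each file gives unstranded, gene-strand and opposite-strand counts as the authors deposited them, and the opposite-strand counts were used. The members and lists were chosen with earlier results of these data known. Genes were filtered by group (14220 of 26346 kept), scaled by TMM and fitted over all 13 groups with edgeR 4.0.16 (R 4.3.3), quasi-likelihood, with Benjamini-Hochberg adjustment at 0.05. CPM use the TMM-scaled library sizes. Ratios of the members have 95% exact conditional binomial intervals. The script was tested on simulated data. Named genes are the 8 members, the construct genes, up to 4 called genes with the smallest p per list and comparison, the neighbours, and the 3 genes most like ISLR and LRRC15. A gene named for 1 comparison may be given for all 3. Alternatives were DESeq2 1.42.0, other scaling and filters, unstranded counts, a replicate block, own empty vector pairs, the compared groups alone, and leaving out each replicate.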

Additional observations from a re-analysis of the deposited data

Results flagged for a closer look

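In the empty vector group, 1 library stood apart from 3 at 0 for 4 genes: BGN was at 0.0899 CPM in replicate 2, FMOD at 0.0907 in replicate 1, OLFML1 at 0.0907 in replicate 1 and KRT7 at 0.045 in replicate 2. Each is 1 or 2 reads. A gene with reads in only 1 of the 4 libraries is always flagged by this rule, so the flags say no more than that. The usual rate of about 1 flag by chance in 20 groups does not hold for such counts. The check was run over 77 genes, but genes with no read in the empty vector group could not be flagged. Reads in the strand column not used here also exceeded those of the empty vector. ISLR had 38 such reads with ARID1A CBR and LRRC15 had 239 with ARID1A WT. BGN had 24 with ARID1A WT and FMOD 14 with ARID1A CBR. In the first strand set they were 18.6% of all ISLR reads, 11.4% for LRRC15, 14.1% for BGN and 12% for FMOD, beside 13.5% over all genes. In the third set ISLR was at 10.1%, or 10 reads beside 89 on the other strand, where all genes were at 2.83%. In the second set it was at 3% beside 1.58%.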

How the results depend on the processing

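The companion calls depended most on which groups shared the estimate of spread. With only the 2 groups compared, 40 companion genes were called with ARID1A CBR instead of 71, 41 with ARID1B WT instead of 66, and 45 with ARID1A WT instead of 66. Over all genes these fits called 3666 instead of 7550, 2140 instead of 6129 and 2748 instead of 6334; without ARID1B WT replicate 2 the count was 3957. Leaving out each library gave 57 to 69 companion calls with ARID1A WT, 57 to 73 with ARID1A CBR and 57 to 72 with ARID1B WT. Deviations of replicate 1 correlated with those of empty vector replicate 1 at 0.028 with ARID1A WT, 0.007 with ARID1A CBR and 0.007 with ARID1B WT. The replicate numbers thus showed no pairing with the ARID1A constructs. For ARID1B WT that control lies in another strand set, so the value cannot show pairing. Empty vector replicates 3 and 4 have no same-numbered construct library, and pairing with them was not tested. With a replicate block 78, 77 and 84 companion genes were called with ARID1A WT, ARID1A CBR and ARID1B WT. Of 1931 alternative values for 141 named results, 1781 kept the call, 93 lost a call, 49 gained one with the same sign, and 8 reversed. Reversed means a change of sign with a call. A change of sign where neither value passed was counted as kept. HAUS7 with ARID1A WT, for example, was at -0.35, and at 0.26 against its own pair. The reversed values were log2 fold changes of neighbours. With the replicate block in the ARID1A CBR comparison BTG2 was at -0.26, CPT2 at 0.24 and SCP2 at 0.23. Against its own empty vector pair these were -0.26, 0.24 and 0.23, and HAUS7 was at 0.26. In the ARID1B WT comparison HAUS7 was at 0.36 with the block, but at -0.71 against its own pair (adjusted p = 2.14e-06), the direction of the reported -0.25. Since empty vector replicates 3 and 4 share their numbers with no construct library, the block fit in effect used empty vector replicates 1 and 2 alone. They are the own pair of ARID1A CBR, so its block and own-pair values are not separate alternatives. For ARID1B WT they lie in another strand set. The cause of the difference between the empty vector pairs was not tested. Depth limits DCN, LUM, PODN and PRELP, which had 22 reads or fewer in all.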
